A study of Mus musculus with 14 samples.

Results

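The genes described here are the collagen, laminin and fibrillin genes of the mouse, 57 of the 32960 gene symbols in the read count table of sorted oligodendrocytes. They were chosen by symbol, with earlier results of these data known. The set takes in every collagen chain gene (Col followed by a type number and a chain number) and every laminin alpha, beta or gamma chain gene. It also takes in the fibrillin genes Fbn1 and Fbn2. This gave 44 collagens, 11 laminins and 2 fibrillins, and between 54 and 57 of them were listed in each of the single-cell matrices. All samples came from male C57BL/6 mice injected intraperitoneally with saline (called mock) or with morphine sulfate, at a dose and interval that are not given in the sources used here. Drop-seq, a droplet method that tags each captured transcript with a unique molecular identifier (UMI), was applied to 4 mock and 4 morphine pools of the nucleus accumbens, a reward-related region of the ventral striatum. Each pool held 2 mice. In both groups replicates 1 and 2 were 37 to 45 days old and replicates 3 and 4 were 78 to 82 days old. Bulk RNA-seq was applied to oligodendrocytes, the myelin-forming cells, purified by fluorescence-activated sorting from the entire brain at 70 days of age, with 3 libraries per group and 6 mice in all.

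Laminins and collagen IV are the 2 networks of the basement membrane, the sheet of matrix that in brain wraps blood vessels and underlies the pia. A laminin is a trimer of an alpha, a beta and a gamma chain, and it binds cells through integrins and dystroglycan. Fibril-forming collagens (types I, II, III, V, XI, XXIV and XXVII) build the fibres of connective tissue. Fibrillins assemble into microfibrils that hold TGF-beta and BMP growth factors in the matrix. In brain these genes are best known from vascular and meningeal cells, while laminin 211, made of the alpha 2, beta 1 and gamma 1 chains, acts on the oligodendrocyte lineage.

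Gene-assigned reads numbered 14989118 to 23456702 per sorted library, of which at most 16.9% were mitochondrial, and the summed level of 10 mature oligodendrocyte markers was 61533 to 67746 counts per 1000000 (CPM) over the 6 libraries. Sorted libraries are numbered as the columns of the deposited table. After filtering, 32345 accumbens cells remained, and most were assigned to 22 classes by marker genes, which did not include any gene described here. The Zic1 and Resp18 neurons met no marker list and are called by leading genes of their own. Class names are used in the sense of "-like". Of the 32345 cells, 2897 (8.96%) stayed unnamed. UMIs per pool ranged from 6691949 to 22984998. The doublet caller marked 0% to 0.21% of cells in 4 pools (mock 1, mock 3, morphine 1 and morphine 2) and so did not work there.

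In sorted oligodendrocytes, morphine libraries carried more Lamc1, the laminin gamma 1 chain, and much less Fbn2, a fibrillin, than mock libraries. Col5a3, Col23a1, Col6a3 and Lama2 were also higher, and Lamb1 and Lama4, both laminin chains, were lower. Of the 57 genes, 55 had enough reads to be tested and 8 passed an adjusted p of 0.05, 5 higher and 3 lower (edgeR's quasi-likelihood test with Benjamini-Hochberg adjustment over 15750 genes). That is 14.5% of those tested, beside 14.8% of all tested genes called in either direction, 8.1% called higher and 6.68% called lower, so the share called among matrix genes was near the background. The 3 mock and 3 morphine values did not overlap for 13 of the 55 (23.6%), against 29.1% of all tested genes. The median log2 change over the 55 was -0.17, with 17 positive and 38 negative, and the median over all tested genes was -0.02. Fewer cells of a type and less RNA per cell cannot be told apart in these bulk libraries.

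**Figure D1:**
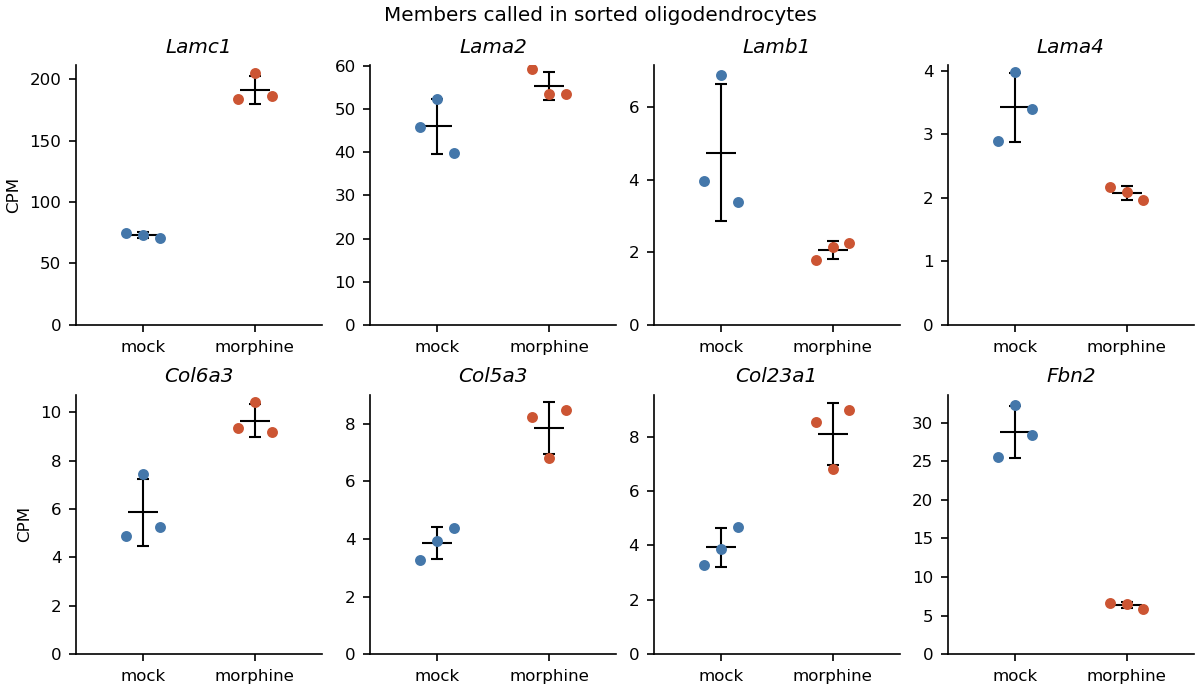
Level in CPM of the 8 called genes in each sorted oligodendrocyte library, 1 panel per gene on a linear axis from 0, with mock libraries in blue, morphine libraries in orange, and the group mean and SD in black. Lamc1 rose from a mean of 73.0 to 191 CPM and Fbn2 fell from 28.8 to 6.38 CPM, and in none of the 8 panels do the points of the groups overlap.

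Laminin gamma 1 is the gamma chain of most laminins, and its gene, Lamc1 (chr1:153218922-153332786, minus strand, mm10), was the most abundant of the 57 in these cells. Lamc1 stood at 74.96, 73.48 and 70.59 CPM in mock libraries 1 to 3 and at 183.61, 204.65 and 186.15 CPM in morphine libraries 1 to 3. Every morphine library was thus far above every mock library. The means were 73.0 ± 2.22 and 191 ± 11.5 CPM (SD, n = 3), 2.62-fold, and the log2 difference was 1.39 (SE 0.0617, adjusted p = 6.5e-13). Per kilobase of exon, the scale on which genes can be compared, the level of Lamc1 was 8.83 CPM in mock and 23.1 CPM in morphine libraries, above the next member, Lama2, at 2.81 and 3.39 CPM.

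Lama2 (chr10:26980036-27619758, minus strand) encodes the alpha 2 chain that joins gamma 1 in laminin 211. Its level was 45.81, 52.37 and 39.75 CPM in mock and 59.18, 53.39 and 53.54 CPM in morphine libraries. The groups did not overlap, but mock 2 came within about 1 CPM of the nearest morphine library. The log2 difference of Lama2 was 0.27 (SE 0.085, adjusted p = 0.0347), and the call was lost without mock 1, without mock 3 and without each morphine library in turn, with adjusted p from 0.057 to 0.182. The beta chains that complete these trimers were far lower. Lamb1 (chr12:31265234-31329644, plus strand), the beta 1 chain, was at 3.96, 6.90 and 3.39 CPM in mock and at 1.79, 2.14 and 2.26 CPM in morphine libraries. All 3 morphine libraries lay below all mock libraries, and mock 2 was the highest. The log2 difference of Lamb1 was -1.17 (SE 0.255, adjusted p = 0.00217), so the gamma 1 and beta 1 chains of the same trimer were called in opposite directions. Lamb2, the beta 2 chain, had means of 3.16 and 2.93 CPM, a log2 difference of -0.09 (SE 0.245) that did not pass the test. Per kilobase, Lamb1 fell from 0.479 to 0.208 CPM and the level of Lamb2 was 0.519 in mock and 0.483 CPM in morphine libraries.

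Lama4 (chr10:38965515-39110188, plus strand), the alpha 4 chain of vascular basement membranes, was at 2.89, 3.98 and 3.39 CPM in mock and 2.17, 2.09 and 1.96 CPM in morphine libraries. The groups did not overlap, at a depth of 2 to 4 CPM. The log2 difference was -0.71 (SE 0.228, adjusted p = 0.0386), and this call was lost under DESeq2, without a filter on low counts, and without each library other than mock 1. The authors' deposited table gave Lama4 an adjusted p of 0.131 and so did not call it. In that table, 5 of the 57 genes were higher and 2 lower at the same threshold, with a log2 change of 1.40 for Lamc1 and -2.05 for Fbn2. Lama1, Lama3, Lama5, Lamb2 and Lamc3 were not called, and their mock means were between 0.688 (Lamc3) and 4.59 CPM (Lama5). In all, 2 of the 10 tested laminins rose and 2 fell, beside 8.1% and 6.68% of all tested genes, and Lama2 and Lama4 are among these 4.

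Markers of vascular cells were measured in the same libraries, since Lamb1 and Lama4 are also vessel genes. Of all tested genes, 6.68% were called lower and 8.1% higher. Of 10 endothelial markers, 4 were called lower in morphine libraries (Kdr, Flt1, Slco1a4 and Itm2a), none was at 0, and their summed level ran from 79.1 to 91.8 CPM for mock and from 56.1 to 76.0 CPM for morphine libraries. None of the 7 tested pericyte markers was called, with sums of 50.6 to 55.5 and 43.1 to 57.8 CPM. Vascular smooth muscle markers had 2 of 8 called higher, with mock sums of 26.1 to 41.2 CPM and morphine sums of 40.01 to 51.3 CPM. Fibroblast markers had 1 of 10 called higher, Apod, which the oligodendrocyte class of the accumbens also expresses and which made up 721 of a mean sum of 744 CPM in mock and 878 of 899 CPM in morphine libraries. The sums were 667 to 799 and 862 to 966 CPM, and the median log2 difference of the list was -0.22. Oligodendrocyte precursor markers had 2 of 7 called higher (Olig1 and Tnr) and summed to between 506 and 579 CPM in mock and between 723 and 809 CPM in morphine libraries. Olig1, a gene of the whole oligodendrocyte lineage, accounted for a mean of 495 and 716 CPM of these sums, and Pdgfra, Vcan, Cspg4, Gpr17 and Matn4 were not called. Of 8 tested newly formed oligodendrocyte markers, Fyn and Itpr2 were called higher (log2 0.97 and 0.96). Tcf7l2 and Bcas1 were called lower (log2 -0.50 and -0.19), and Enpp6, Neu4, Bmp4 and Gpr17 were not called. Among the 10 mature oligodendrocyte markers, Mobp was called higher (log2 0.58). Aspa, Ermn and Opalin were called lower (log2 -0.53, -0.47 and -0.31), so the sum given for that list does not describe each marker. The part of these cell types in the laminin, collagen and fibrillin differences was not tested.

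Among the 43 tested collagens, 3 rose (6.98%) and none fell, beside 8.1% and 6.68% of all tested genes called higher and lower. The other 40 were not called, and 30 of 43 had a negative log2 difference. By DESeq2 the called collagens were the same 3. Col5a3 (chr9:20770050-20815067, minus strand) encodes the alpha 3 chain of collagen V, a minor fibril collagen that sets fibril width. It was at 3.27, 3.92 and 4.40 CPM in mock and 8.25, 6.81 and 8.47 CPM in morphine libraries. The lowest morphine value exceeded the highest mock value by more than 2 CPM, and the log2 difference was 1.03 (SE 0.163, adjusted p = 7.4e-05). Its partner chains Col5a1 and Col5a2 had log2 differences of 0.03 and -0.03, at mock means of 0.969 and 1.58 CPM.

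Col23a1 (chr11:51289920-51583918, plus strand) encodes a transmembrane collagen. It was at 3.27, 3.85 and 4.66 CPM in mock and 8.52, 6.81 and 8.98 CPM in morphine libraries, a pattern over libraries much like that of Col5a3. The log2 difference of Col23a1 was 1.05 (SE 0.168, adjusted p = 8.5e-05). Col6a3 (chr1:90765923-90843971, minus strand) encodes the large alpha 3 chain of collagen VI, which forms beaded filaments with the alpha 1 and alpha 2 chains. It was at 4.90, 7.43 and 5.25 CPM in mock and 9.34, 10.44 and 9.19 CPM in morphine libraries. The groups were separate, with mock 2 nearest to the morphine values, and the log2 difference was 0.74 (SE 0.153, adjusted p = 0.00143). Col6a1 and Col6a2, the other chains of that trimer, had log2 differences of -0.17 and -0.10 and were not called.

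The bases directly before the annotated start of Col5a3, Col23a1, Col6a3 and Lamb1 are shown because these 4 genes, all below 11 CPM in every library, kept their calls under every alternative run on the sorted cells and have an entry in the RefSeq promoter table (GRCm38.p6, the assembly of mm10). Of the 57 genes, 41 matched that table, with 45 promoters. They were searched on both strands for GGGCGG (a GC box), for CCAAT and for TATAAA. Matches of different motifs shared no bases in these windows. Capitals mark the matches, written as CCGCCC where the GC box lies on the other strand.
Col5a3, chr9:20815068-20815317, minus strand: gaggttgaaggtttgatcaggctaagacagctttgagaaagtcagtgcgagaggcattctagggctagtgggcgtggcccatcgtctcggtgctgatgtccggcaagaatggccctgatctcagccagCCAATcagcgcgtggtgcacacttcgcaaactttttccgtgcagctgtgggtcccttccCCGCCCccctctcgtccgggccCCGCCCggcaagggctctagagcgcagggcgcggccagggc
Col23a1, chr11:51289670-51289919, plus strand: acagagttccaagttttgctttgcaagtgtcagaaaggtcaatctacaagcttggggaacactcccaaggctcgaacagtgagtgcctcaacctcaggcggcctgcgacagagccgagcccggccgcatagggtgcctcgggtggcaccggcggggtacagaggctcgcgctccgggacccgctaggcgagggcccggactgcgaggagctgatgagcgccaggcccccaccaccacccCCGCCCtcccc
Col6a3, chr1:90843972-90844221, minus strand: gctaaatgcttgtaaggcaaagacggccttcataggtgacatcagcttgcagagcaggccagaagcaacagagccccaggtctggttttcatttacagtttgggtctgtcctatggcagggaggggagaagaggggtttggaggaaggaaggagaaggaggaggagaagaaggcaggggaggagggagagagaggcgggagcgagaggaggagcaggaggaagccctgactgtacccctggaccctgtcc
Lamb1, chr12:31265043-31265233, plus strand: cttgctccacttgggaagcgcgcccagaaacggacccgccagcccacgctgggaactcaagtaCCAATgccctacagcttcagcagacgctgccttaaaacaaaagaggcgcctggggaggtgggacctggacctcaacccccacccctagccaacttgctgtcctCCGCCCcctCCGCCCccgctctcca

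All 4 windows were richer in G and C than the median of 52.4% over 32851 promoters: 62.8% for Col5a3, 66.0% for Col23a1, 57.2% for Col6a3 and 63.9% for Lamb1. Col5a3 and Lamb1 each held 2 GC boxes and 1 CCAAT, Col23a1 held 1 GC box, and Col6a3 held no match. Over all promoters, 32.7% of the 250-base windows held GGGCGG, 33.8% held CCAAT and 12.4% TATAAA. Over the 191 bases used for Lamb1, the part of its window without an annotated exon, the shares were 23.1%, 26.9% and 8.78%. Over the 45 promoters of the 41 matched members the shares were 55.6% with GGGCGG, 31.1% with CCAAT and 11.1% with TATAAA. A match describes the sequence without marking a bound site.

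Among the collagens that were not called are the most abundant ones of these cells. Col27a1, a fibril-forming collagen, was at 22.48, 22.57 and 23.85 CPM in mock and 23.56, 22.19 and 22.90 CPM in morphine libraries. Col11a2, a chain of the fibril-forming collagen XI, was at 19.82, 17.59 and 20.51 CPM against 16.45, 17.19 and 16.30 CPM, which did not overlap but gave a log2 difference of -0.22 with an adjusted p of 0.147. Col9a3, a chain of the fibril-associated collagen IX, was at 10.82, 9.89 and 10.39 CPM against 8.79, 9.61 and 10.64 CPM. The Col27a1 and Col9a3 values of the groups overlapped. The 6 collagen IV chains, the network collagens of the basement membrane, had none called, with log2 differences from -0.46 (Col4a6) to 0.36 (Col4a1). Col1a1, Col1a2 and Col3a1, the main chains of interstitial fibrils, had log2 differences of 0.07, -0.00387 and -0.62, and none was called. Reads were few for many members: 35 had a mock mean under 3 CPM, and 0 of those 35 were called.

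**Figure D2:**
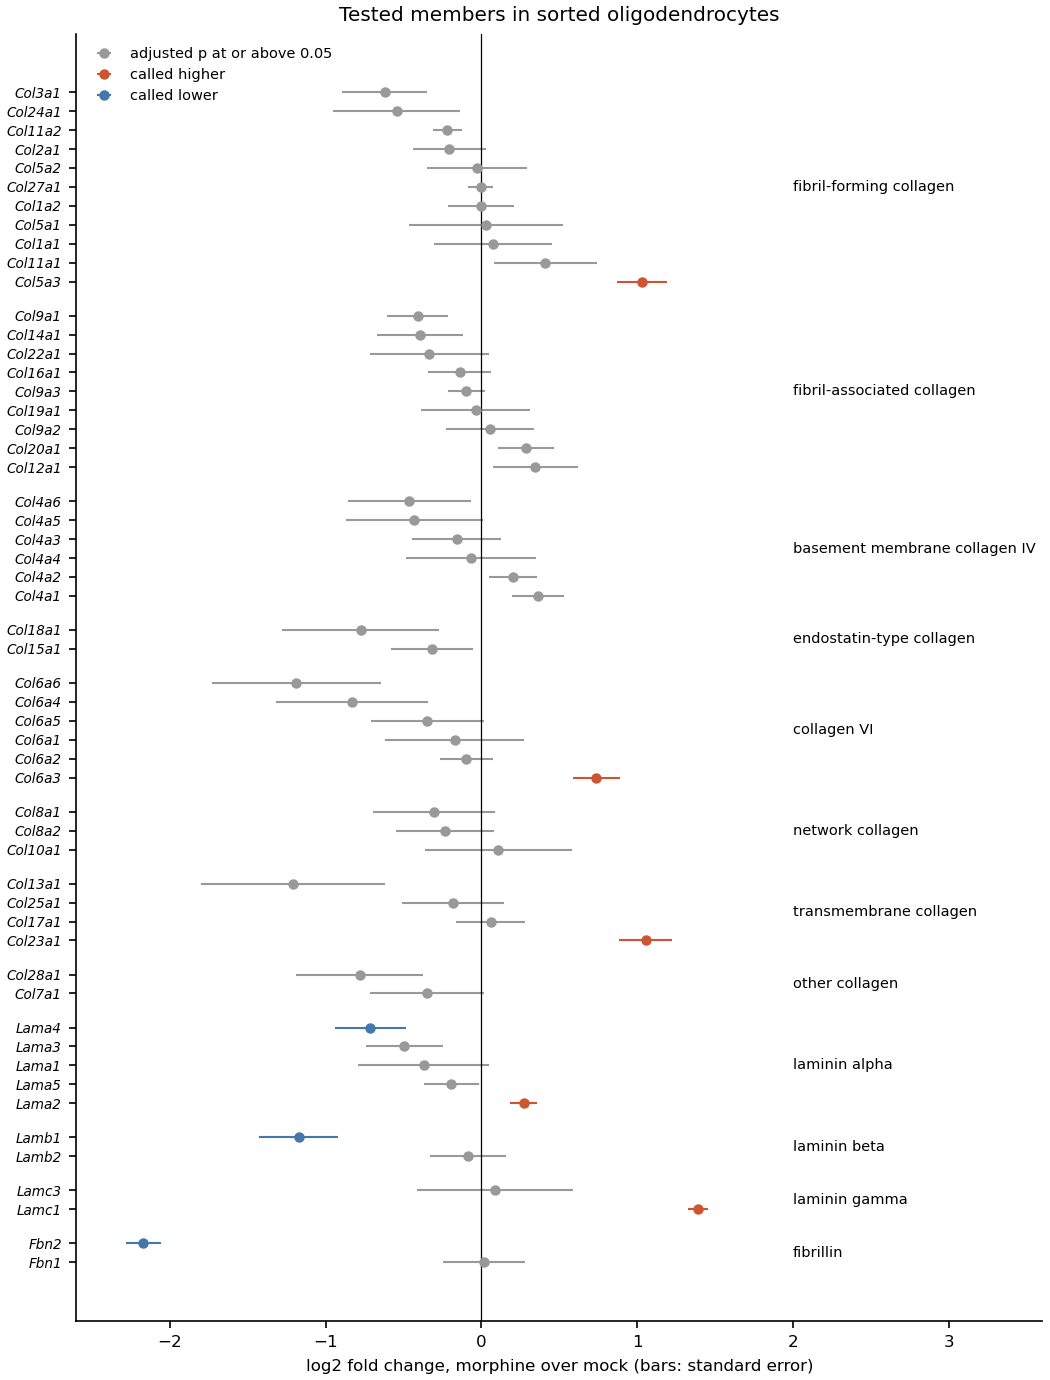
Log2 fold change of morphine over mock in sorted oligodendrocytes for 54 of the 55 tested genes, grouped by family, with bars of 1 SE, genes called higher in orange, genes called lower in blue and the others in grey. Fbn2 at -2.17 and Lamc1 at 1.39 have the lowest and the highest values.

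Fbn2, the fibrillin best known from developing tissue, had the largest change of the 57 genes. It was at 25.56, 32.32 and 28.41 CPM in mock and at 6.68, 6.54 and 5.92 CPM in morphine libraries. Every morphine library was far below the 25.56 CPM of the lowest mock library. The means were 28.8 ± 3.40 and 6.38 ± 0.405 CPM (SD, n = 3), 4.51-fold lower under morphine, and the log2 difference was -2.17 (SE 0.112, adjusted p = 6.9e-12). Per kilobase Fbn2 went from 2.18 to 0.483 CPM. Fbn1, the fibrillin of adult connective tissue, was at 2.80, 5.38 and 2.23 CPM in mock and 3.96, 2.97 and 3.36 CPM in morphine libraries. Its groups overlapped, with a log2 difference of 0.02 (SE 0.263, adjusted p = 0.983), whose sign turned when mock 1, mock 3 or morphine 1 was left out.

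The calls for Lamc1, Fbn2, Col5a3, Col23a1, Col6a3 and Lamb1 were kept under all 10 alternatives run on the sorted cells. The exons of 15 members overlap a gene on the other strand and those of 3 a gene on the same strand. The strand setting of the read counting is not given in the sources used here, so reads of such neighbours could not be separated.

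The genes that make, cross-link, bind and degrade this matrix were examined by lists, beside the 14.8% of all tested genes that were called. Of 26 tested genes of collagen processing, 1 rose and 4 fell. Pcolce2, an enhancer of procollagen cleavage, rose from 67.3 to 109 CPM (log2 0.69), while Serpinh1, the collagen chaperone HSP47, fell from 7.66 to 3.35 CPM (log2 -1.20) and P4ha1, a prolyl hydroxylase subunit, from 32.6 to 17.2 CPM (log2 -0.92). Adamts2, a procollagen peptidase, fell from 51.2 to 36.9 CPM (log2 -0.48). The median log2 difference of this list was -0.10, beside -0.02 over all tested genes.

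Basement membrane partners had 0 of 11 called higher and 2 lower, Frem1 (5.52 to 3.30 CPM) and the peroxidase Pxdn, which cross-links collagen IV (7.70 to 5.48 CPM). Of 16 microfibril and elastic fibre genes, Emilin2 rose from 31.9 to 76.3 CPM (log2 1.25) and Adamtsl4 fell from 93.9 to 77.8 CPM (log2 -0.27). Of 7 tested TGF-beta and BMP ligands, Tgfb3 rose from 18.7 to 37.2 CPM (log2 0.99) and Bmp2 fell from 8.85 to 5.56 CPM (log2 -0.66). None of the 20 tested laminin and collagen receptors was called by edgeR or by DESeq2, and 3 of them had an unadjusted p under 0.05. Of 16 matrix proteases and inhibitors, 3 rose and 2 fell. Timp3 rose from 15.6 to 23.6 CPM and Reck, another inhibitor, from 8.75 to 11.9 CPM, while the protease Adamts4 fell from 340 to 215 CPM and Timp2, listed with the inhibitors, from 135 to 81.0 CPM. The lists' medians ranged on both sides of 0, from -0.36 for the growth factor ligands to 0.02 for the microfibril genes.

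In the nucleus accumbens the 57 genes were concentrated in vascular and meningeal classes. Their summed level was 9703 CPM in fibroblasts (mean over pools), 3369 in pericytes, 1938 in smooth muscle cells, 1164 in endothelial cells and 654 in ependymal cells. It was 469 CPM in newly formed oligodendrocytes, 432 in oligodendrocyte precursors, 177 in mature oligodendrocytes and 180 in D2 spiny neurons. Red blood cells, which are not known to make matrix, summed to 242 CPM (126 to 370 over 5 pools), and perivascular macrophages to 86.5 CPM, at median depths of 1841 and 1533 UMIs per cell beside 1824 in mature oligodendrocytes. The sums of mature oligodendrocytes and D2 neurons were thus not above that of red blood cells and are not read as expression of the whole group. The same holds for excitatory neurons (224 CPM), microglia (221), main-type D1 neurons (201), dividing progenitors (154) and neuroblasts (142). In red blood cells the leading members were Col11a1 (36.0 CPM, 12 UMIs), Col4a2 (25.4 CPM, 6 UMIs) and Col9a3 (25.2 CPM, 4 UMIs). Among the genes of mature oligodendrocytes, Lamc1 had a mean of 9.39 CPM in red blood cells (2 UMIs) and 0 UMIs in perivascular macrophages, and Lama2 6.58 CPM (2 UMIs) and 0 UMIs. Of the 57 genes, 26 had their highest mean in fibroblasts, a class of only 81 cells in which 4 pools held 10 cells or more. Among them, only Col1a1, Col1a2, Col12a1, Col13a1, Col15a1 and Col18a1 had every fibroblast pool above every pool of the next class. Fibroblast pools held 7501 to 23790 UMIs, and some of these means rest on few UMIs, as for Col5a1 (2), Col6a3 (4) and Fbn1 (6). These values describe the classes and carry no test between them.

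**Figure D3:**
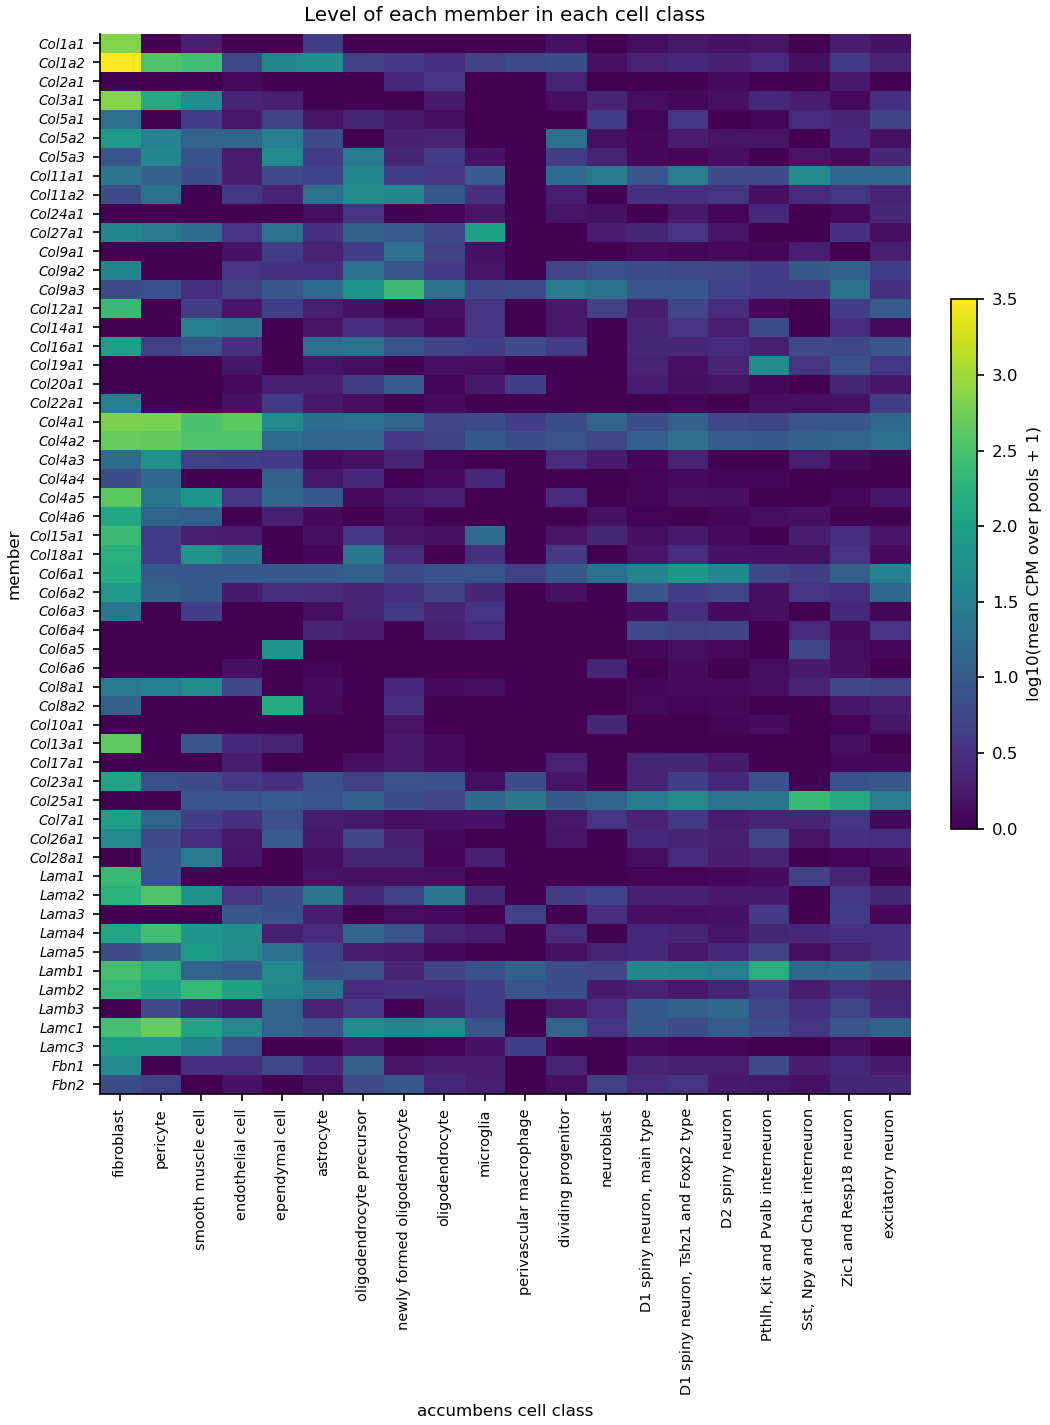
Mean level over pools of 56 of the 57 genes (vertical axis, by family) in 20 accumbens cell classes (horizontal axis), with colour giving log10 of the mean CPM plus 1. Col1a2, Col4a1 and Col4a2 are bright in the fibroblast and vessel classes, Col25a1 and Lamb1 in interneurons, and Col9a3 in newly formed oligodendrocytes.

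Interstitial collagens marked the fibroblast class. Col1a2 ranged from 2142 to 4868 CPM over pools with a median of 2890, and its mean was 9.34 times that in pericytes. Col3a1 had a median of 620 CPM (266 to 1733) and Col1a1 a median of 657 CPM (222 to 1217). Col1a2 also had a median of 51.9 CPM in astrocytes (30.5 to 63.9, from 272 UMIs) and of 273 CPM in smooth muscle cells (87.1 to 520).

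The basement membrane genes were spread over all vessel classes and fibroblasts. Col4a1 and Col4a2 had their highest means in fibroblasts, with medians of 753 CPM (140 to 967) and 543 CPM (133 to 628). Col4a1 had a median of 384 CPM in endothelial cells (274 to 748), 622 in pericytes (408 to 959) and 297 in smooth muscle cells (164 to 498). These ranges overlapped, whereas its mean in main-type D1 spiny neurons was 5.66 CPM. Col4a2, the partner of Col4a1, had medians of 343 (197 to 446), 263 (102 to 1142) and 317 CPM (113 to 645) in the same classes. Over 20 classes the mean levels of the pair had a Pearson r of 0.988 and a Spearman rho of 0.762. The classes share libraries, so this is a description. Col4a3 and Col4a4 (r 0.796, rho 0.125, 57 and 32 UMIs) and Col4a5 and Col4a6 (r 0.995, rho 0.356, 191 and 37 UMIs) were too sparse to order. The 2 genes of each pair lie head to head, with 71 bases between the starts of Col4a3 and Col4a4 on chromosome 1 and starts of Col4a1 and Col4a2 that overlap by 22 bases on chromosome 8.

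The class of the highest mean differed among the laminin chains, with overlaps. For Lamc1, Lama2, Lama4 and Lamb2 the pools of that class overlapped those of fibroblasts, where the means were 288, 174, 116 and 216 CPM. The mean of Lamb2 in smooth muscle cells, its highest, was 224 CPM. Lamc1 had a median of 391 CPM in pericytes (281 to 914), Lama2 of 391 CPM (204 to 474) and Lama4 of 255 CPM (87.5 to 503) in the same class. Lamb2, the beta 2 chain, had a median of 219 CPM in smooth muscle cells (79.2 to 312) and 110 CPM in endothelial cells (71.9 to 133). Lama5, the alpha 5 chain of mature vessels, had a median of 85.9 CPM in smooth muscle cells (57.6 to 103). Lamb1 was highest in fibroblasts, at a median of 272 CPM (93.6 to 533), followed by 179 CPM in pericytes (87.5 to 228). It was also found in neurons: in interneurons marked by Pthlh, Kit and Pvalb its median was 132 CPM (112 to 266), which overlapped the pericyte range, and in main-type D1 spiny neurons it was 40.3 CPM (30.5 to 55.6), with 35.0 CPM (22.9 to 46.4) in D1 neurons marked by Tshz1 and Foxp2. In D2 spiny neurons Lamb1 had a median of 28.4 CPM (22.1 to 38.0), next to Col6a1 among the members.

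Neurons carried a small set of collagens. Col25a1, a transmembrane collagen, had medians of 222 CPM in Sst, Npy and Chat interneurons (91.9 to 334) and 130 CPM in neurons marked by Zic1 and Resp18 (65.4 to 229), with 38.7 CPM (33.0 to 73.2) in Tshz1 D1 neurons. Every Sst, Npy and Chat interneuron pool was above every pool of those D1 neurons. Perivascular macrophages had a Col25a1 mean of 23.7 CPM (0 to 64.3 over 6 pools, 5 UMIs). That range overlapped the one of the Tshz1 D1 neurons and lay below every Sst, Npy and Chat interneuron pool. Col19a1, a fibril-associated collagen linked to interneuron synapses, had a median of 46.8 CPM in Pthlh interneurons (23.9 to 66.8). Col6a1, the alpha 1 chain of collagen VI, had medians of 73.5 CPM in Tshz1 D1 neurons (38.9 to 98.9), 40.1 in D2 neurons (24.8 to 59.9), 36.5 in main-type D1 neurons (25.1 to 57.3) and 27.2 in excitatory neurons (15.3 to 93.1).

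Non-neuronal parenchymal classes had members of their own. In microglia Col27a1 had a median of 90.9 CPM (23.7 to 150). Ependymal cells, which line the ventricles, had Col8a2 at 138 CPM (86.3 to 234), Col6a5 at 58.5 CPM (0 to 111) and Col5a3 at 34.5 CPM (8.79 to 91.0). Col6a5 was at 0 in 1 or more of the 7 ependymal pools, where a single UMI weighs heavily. Choroid plexus cells, 39 in all and 33 of them in morphine 1, are not described further.

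In the oligodendrocyte lineage the leading genes were Col9a3, Col11a2, Lamc1 and Lama2. Col9a3 had a median of 230 CPM in newly formed oligodendrocytes (197 to 375) and 63.8 CPM in precursors (41.0 to 88.6). Every pool of newly formed cells was above every precursor pool. Col11a2 had medians of 39.4 CPM (32.9 to 63.8) and 50.5 CPM (25.8 to 58.0) in the same classes, which overlapped. Lamc1 had medians of 39.97 CPM in mature oligodendrocytes (26.7 to 87.5), 43.5 in newly formed ones (2.82 to 58.5) and 44.99 in precursors (27.7 to 77.3). These ranges, over mock and morphine pools together, overlapped, and the 3 stages were not tested against each other. Lama2 had a median of 23.5 CPM in mature oligodendrocytes (18.1 to 29.9) and 25.1 CPM in astrocytes (14.5 to 26.9).

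Morphine was then compared with mock on summed UMI counts, in each accumbens class for which 3 or more pools per group held 10 cells or more. This gave 19 classes and the sum of all cells, in 17 of which at least 1 member passed the filter on low counts, for 121 gene and class pairs over 42 genes. None was called (edgeR and DESeq2 both gave 0). By edgeR, 6 pairs (4.96%) had an unadjusted p under 0.05, beside 2.65% of all genes over the same fits. Over all genes the share called for treatment was 0.0956% in mature oligodendrocytes, 0.038% in astrocytes and 0.0% in every other fit, so few genes of any kind passed in these data. The log2 difference was positive for 63 and negative for 58 of the 121 pairs, with a median of 0.02, beside medians of -0.05 to 0.01 over all genes of each fit.

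The smallest p belonged to Lamc1 in mature oligodendrocytes. Lamc1 was at 26.7, 37.9, 34.2 and 36.5 CPM in mock pools 1 to 4 and at 46.2, 42.1, 76.7 and 87.5 CPM in morphine pools 1 to 4. Every morphine pool was above every mock pool, and the older morphine pools 3 and 4 were the highest; among all 8372 genes tested in this class the groups did not overlap for 3.89%, with morphine higher for 1.36%. The means were 33.8 ± 4.97 and 63.1 ± 22.4 CPM (SD, n = 4, 132 and 257 UMIs), with a log2 difference of 0.94 (SE 0.256) and an adjusted p of 0.300 by edgeR over all genes of the class. The same difference had an adjusted p of 0.0119 when no filter on low counts was applied. It was 0.43 in the younger pools alone and 1.28 in the older pools alone. In newly formed oligodendrocytes the log2 difference of Lamc1 was -0.01, in precursors 0.14 and in endothelial cells 0.70, none of them called. These mice are not those of the sorted cells, so the values of the assays stand side by side: log2 1.39 for Lamc1 in sorted oligodendrocytes of the whole brain and 0.94 in the accumbens class.

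**Figure D4:**
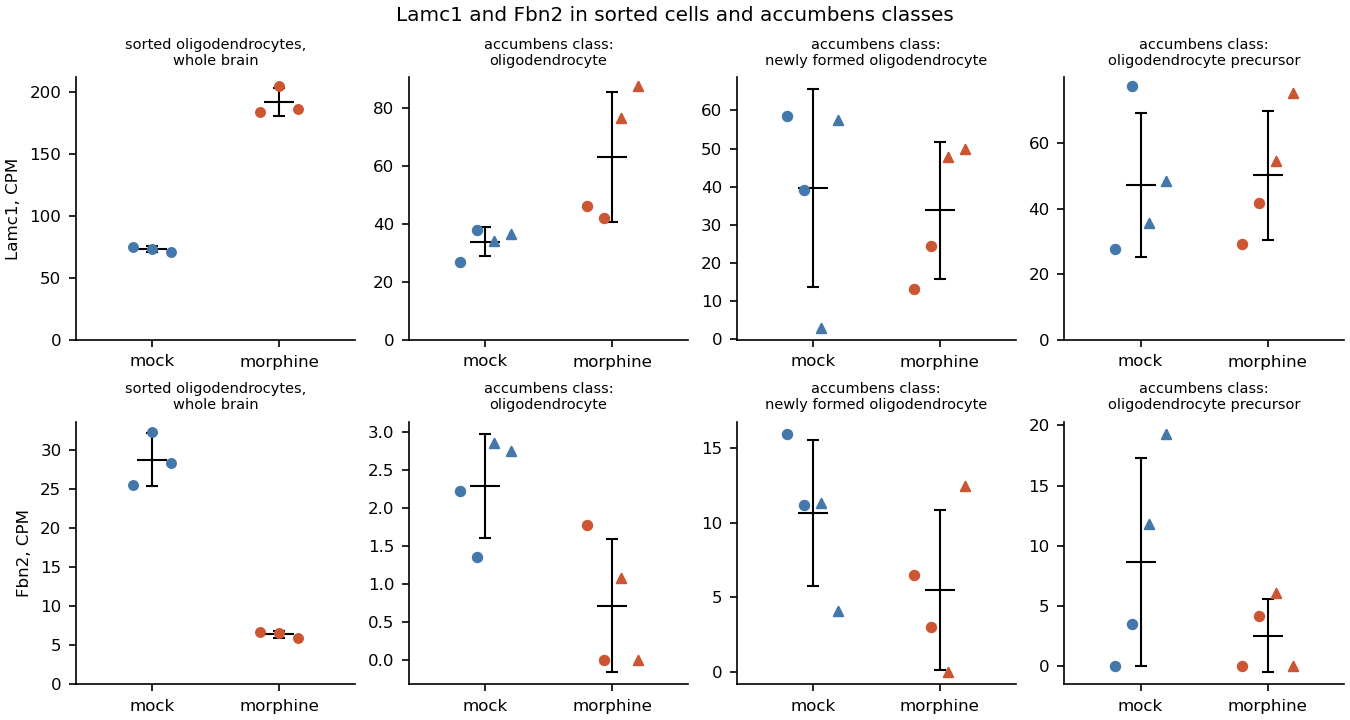
Level in CPM of Lamc1 (upper panels) and Fbn2 (lower panels) in the sorted libraries and in 3 oligodendrocyte lineage classes of the accumbens pools, with mock in blue, morphine in orange, older pools as triangles, and the group mean and SD in black. In mature oligodendrocytes the 4 morphine pools lie at 42.1 to 87.5 CPM of Lamc1, above the mock pools at 26.7 to 37.9 CPM, and in the other accumbens panels the groups overlap.

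Fbn2 was too sparse in the oligodendrocyte lineage classes for the model across genes. It passed the filter on low counts only over all cells, where it was not called for morphine. In mature oligodendrocytes it was at 2.23, 1.35, 2.85 and 2.74 CPM in mock pools and 1.78, 0, 1.08 and 0 CPM in morphine pools, 8 UMIs among 3725276 against 2 among 4031881. Morphine pool 1 lay inside the mock range. A two-sided exact permutation test over the 8 pools gave p = 0.0571 (adjusted p = 0.171 over 3 classes), where the smallest p this design allows is 0.0286. In newly formed oligodendrocytes, the class with its highest mean, Fbn2 was at 15.9, 11.2, 11.3 and 4.12 CPM in mock and 6.53, 3.05, 0 and 12.5 CPM in morphine pools (exact permutation p = 0.257, adjusted p = 0.343). In precursors it was at 0, 3.51, 11.8 and 19.3 CPM in mock and 0, 4.17, 6.06 and 0 CPM in morphine pools (exact permutation p = 0.343, adjusted p = 0.343). The groups overlapped in both classes, which held 17 and 12 UMIs of Fbn2.

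Fbn1 was also sparse in the lineage, with more UMIs than Fbn2 in precursors and fewer in mature and newly formed oligodendrocytes. In precursors Fbn1 was at 6.92, 3.51, 5.91 and 25.8 CPM in mock and 0, 8.33, 24.2 and 10.2 CPM in morphine pools (23 UMIs), with the groups overlapping. Mature oligodendrocytes held 6 UMIs of Fbn1 (0 to 2.23 CPM per pool) and newly formed ones 1 UMI (0 to 4.16 CPM). Its highest mean was in fibroblasts, 45.2 ± 48.6 CPM (SD, n = 8) from 6 UMIs.

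The other genes called in the sorted cells were rare in the mature oligodendrocyte class, with UMIs in mock and morphine pools of 7 and 15 for Col5a3, 23 and 22 for Col23a1, 6 and 3 for Col6a3, 17 and 14 for Lamb1, and 3 and 5 for Lama4. Only Lama2, Lamc1 and Col9a3 of the 57 passed the filter on low counts there. Lama2 was at 22.3, 21.6, 29.9 and 24.7 CPM in mock and 24.9, 18.1, 20.5 and 26.6 CPM in morphine pools, a log2 difference of -0.07 (SE 0.257). The groups of Lama2 overlapped.

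The remaining pairs of smallest p for morphine were Col6a4, Lamc1 and Col23a1 outside the lineage. Col6a4, a collagen VI chain, was at 1.40, 2.08, 1.599 and 1.48 CPM over all cells of mock pools and 4.48, 2.16, 3.36 and 2.46 CPM of morphine pools. Mock 2 and morphine 2 nearly met, and the unadjusted p was 0.0114 with a log2 difference of 0.95. In main-type D1 spiny neurons Col6a4 was at 2.39, 5.05, 4.78 and 1.85 against 9.90, 5.22, 3.96 and 7.02 CPM, with an overlap and a log2 difference of 0.97 (unadjusted p = 0.0377). Lamc1 in pericytes was at 330, 370, 391 and 281 CPM in mock and 481, 914 and 505 CPM in morphine pools 2 to 4, where morphine 1 had only 6 cells and was left out (log2 0.83, unadjusted p = 0.0269). Col23a1 over all cells was at 5.22, 5.34, 4.00 and 5.09 CPM in mock and 2.99, 2.46, 3.98 and 3.26 CPM in morphine pools. Its log2 difference of -0.57 (unadjusted p = 0.0339) had the opposite sign to that in the sorted cells. The adjusted p of these 4 pairs was between 0.975 and 1.

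Older pools (78 to 82 days) were compared with younger pools (37 to 45 days) in the same classes, with treatment as a covariate. None of the 121 pairs was called by edgeR or by DESeq2. By edgeR, 7 pairs (5.79%) had an unadjusted p under 0.05, beside 10.9% of all genes over the same fits. The share of all genes called was 2.79% in endothelial cells, 1.58% in precursors, 0.398% in smooth muscle cells, 0.101% in astrocytes, 0.0918% in dividing progenitors, 0.0833% in Tshz1 D1 neurons, 0.0801% in microglia, 0.0338% in Pthlh interneurons and 0.0% in the other fits. Age was shared by the replicate numbers in both groups, so age and any difference between collection rounds cannot be told apart.

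**Figure D5:**
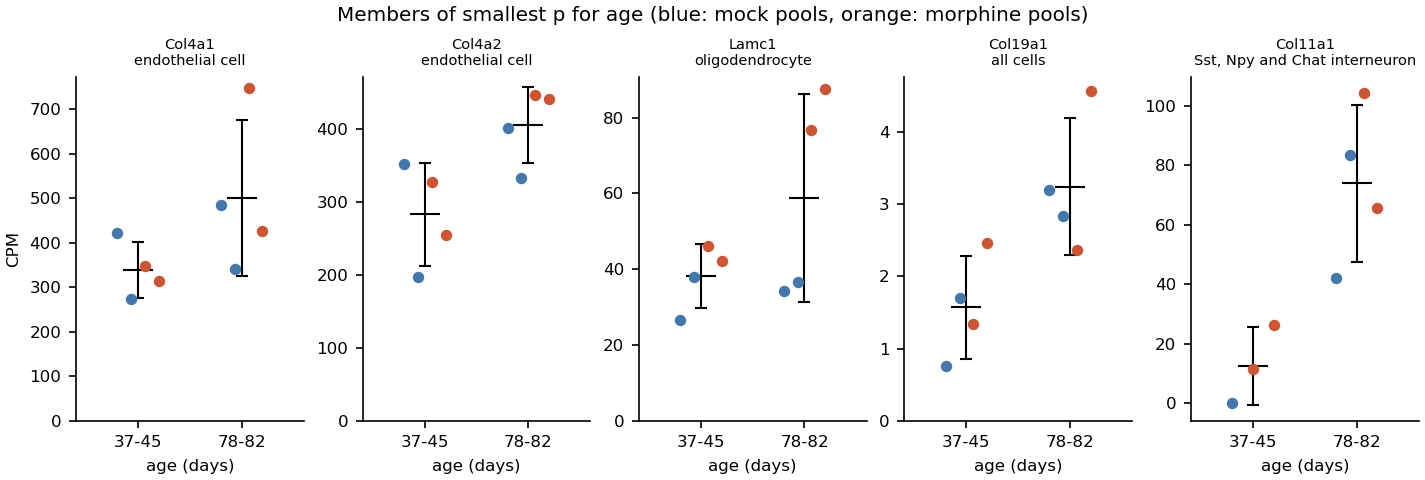
Level in CPM by pool of the 5 gene and class pairs with the smallest p for age, at 37 to 45 and 78 to 82 days, with mock pools in blue, morphine pools in orange, and the mean and SD in black. Col11a1 in Sst, Npy and Chat interneurons had means of 12.6 and 73.9 CPM, and the younger and older points overlap in the other 4 panels.

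Col11a1, a chain of collagen XI, was the pair of smallest p, in the Sst, Npy and Chat interneurons. It was at 0 CPM in mock 2, 11.5 in morphine 1 and 26.3 in morphine 2 of the younger pools, and at 42.2, 83.4, 104 and 65.8 CPM in mock 3, mock 4, morphine 3 and morphine 4. The younger and older pools did not overlap. The log2 difference was 2.28 (SE 0.579, adjusted p = 0.536), from 75 UMIs in all, and mock 1 with 8 cells was left out. This difference was 3.86 without morphine replicate 2 (adjusted p = 0.474) and 1.86 without mock replicate 2. Without a filter on low counts the adjusted p was 0.0186.

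Both main collagen IV chains had positive age differences in endothelial cells that did not pass the test. Col4a2 was at 353, 197, 327 and 255 CPM in the younger pools and at 401, 333, 446 and 442 CPM in the older pools. Only mock 1 and mock 4 overlapped, and the log2 difference was 0.59 (SE 0.202, adjusted p = 0.121). Col4a1 was at 421, 274, 347 and 314 CPM in the younger and 485, 341, 748 and 427 CPM in the older pools, with a log2 difference of 0.60 (SE 0.231, adjusted p = 0.155). The Col4a1 value rested on single pools: it was 0.34 without morphine replicate 3 (adjusted p = 0.447) and 0.28 in the mock pools alone (adjusted p = 0.925). Without mock replicate 4, Col4a1 had an adjusted p of 0.0372 and a log2 difference of 0.76, and Lama4 in the same cells one of 0.0206 with a log2 difference of 1.21. Lamc1 in mature oligodendrocytes went from a mean of 38.2 to 58.7 CPM (log2 0.61, adjusted p = 0.276), and Col19a1 over all cells from 1.57 to 3.24 CPM (log2 1.07, adjusted p = 0.457).

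Whether the morphine difference depended on age was tested as an interaction in each class. None of the 121 pairs was called by edgeR, and DESeq2 was not run for the interaction. An unadjusted p under 0.05 was found for 6 pairs (4.96%), beside 3.55% of all genes over the same fits. Of all genes, 0.0428% were called in excitatory neurons, 0.0301% in endothelial cells, 0.0169% in Pthlh interneurons and 0.0% in the other fits. The interaction was positive for 87 and negative for 34 of the 121 pairs, with a median of 0.37, beside medians of -0.06 to 0.06 over all genes of each fit; pairs of 1 gene or 1 pool share counts. The 2 smallest p values were those of Col11a1 in Tshz1 D1 neurons (interaction -1.56 on the log2 scale, unadjusted p = 0.00761, adjusted p = 0.9996) and of Lamc1 over all cells (1.24, unadjusted p = 0.00789, adjusted p = 0.9989). In mature oligodendrocytes the Lamc1 interaction was 0.84 (edgeR, unadjusted p = 0.0555, adjusted p = 0.9998). The greater Lamc1 difference in the older pools of that class was thus not called as a difference between ages.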

How the data were processed

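The members and gene lists were chosen with earlier results of these data known. Values of 1 member are not reported here singly; it is included in the counts and medians. The submitters' processing notes name STAR 2.4.2a, Trimmomatic 0.36, HTSeq, DESeq and DESeq2, and the mm10 build; further settings are not given in the sources used here. Per the labels, sorted-cell RNA was amplified before library preparation. The authors deposited whole-number read counts per gene for the sorted cells and UMI counts per gene and barcode for the accumbens pools. The authors' deposited comparison table holds a base mean (a normalized count signal), a log2 fold change with its SE, a Wald score, and a p-value with its adjusted p-value, used only where named.

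Entries that name no gene took 69.5% to 74.3% of the sorted-cell reads and were left out. Sorted cells were tested with edgeR 4.0.16 (quasi-likelihood test, TMM scaling, filterByExpr) in R 4.3.3, with Benjamini-Hochberg adjustment over all tested genes and a threshold of 0.05. CPM are TMM-scaled there. The 6 libraries came from 6 mice per the design text, and p-values measure the spread between these libraries.

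Accumbens barcodes (36000) were kept with at least 300 genes and at most 20% mitochondrial UMIs (33225), 880 called doublets were removed, and the rest were clustered with scanpy 1.11.5 (Leiden, resolution 1.0) without the 57 genes and named from fixed marker lists, except the Zic1 and Resp18 neurons, named by their leading genes. Pools shared at most 8 barcodes. UMIs were summed per pool and class and tested with edgeR as above. A further 6120 symbols occurred only in the replicate 1 pools (0.778% of UMIs).

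Genes named with all values were the called ones, the fibrillins, the 3 most abundant per class above 20 CPM, and the 5 of smallest p where fewer than 5 were called. Alternatives were DESeq2 1.42.0, no low-count filter, mitochondrial genes left out, a replicate block, age as covariate or split, each treatment alone, each library left out, both replicate 1 pools left out (chosen after seeing the data) and classes from marker scores. The scripts were tested on simulated data. UMI and read shares of single pools and libraries are given without an error, and PCR duplicates of sorted-cell reads cannot be separated.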

Additional observations from a re-analysis of the deposited data

Results flagged for a closer look

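Within groups of 4 pools with at least 50 UMIs of a gene, 5 values in 101 groups stood apart from the other pools of their group by Dixon's criterion, and chance alone marks about 1 group in 20. Col25a1 in Tshz1 and Foxp2 D1 neurons was at 73.2 CPM in morphine pool 3 (16 UMIs), and the next pool was at 39.1 CPM. Col25a1 in Sst, Npy and Chat interneurons was at 91.9 CPM in morphine pool 1 (8 UMIs), below the next pool at 296 CPM. Col25a1 in excitatory neurons was at 52.0 CPM in mock pool 2 (17 UMIs), with the next pool at 27.9 CPM. Col9a3 in newly formed oligodendrocytes was at 375 CPM in morphine pool 3 (102 UMIs), above the next pool at 238 CPM. Lamb1 in Pthlh, Kit and Pvalb interneurons was at 222 CPM in morphine pool 3 (51 UMIs), above the next pool at 120 CPM. Of these 5 values, 3 were those of morphine pool 3.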

How the results depend on the processing

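In the sorted cells the number of called members stayed within 1.5 times the main count of 8 under all 10 alternatives; with each library left out it was 6 to 8, with 4 to 5 higher and 2 to 4 lower. Calls gained were Col6a6 without mock replicate 1 and Col13a1 without morphine replicate 3, and those lost were Lama2 and Lama4, as given above. The log2 difference of Fbn1, not called, ran from -0.21 to 0.44 with each library left out and reversed to -0.10 without mock replicate 1, -0.21 without mock replicate 3 and -0.09 without morphine replicate 1. In the accumbens, 1 pair was called for morphine without a low-count filter and 1 with the replicate block (Lamc1 in oligodendrocytes in both, adjusted p = 0.0160 with the block), and 0 with each pool left out. For age, 2 pairs were called without the filter (Col11a1 in Sst, Npy and Chat interneurons and Col19a1 in Zic1 and Resp18 neurons), 1 in the mock pools alone (Col8a2 over all cells), 1 with classes from marker scores (Col25a1 in neuroblasts), and 0 to 2 with each pool left out. The cause was not tested.

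Replicate numbers did not pair the sorted libraries: deviations of same-numbered libraries had correlations of 0.0155, -0.125 and -0.0298, and with the replicate block Lama4 lost its call (adjusted p = 0.0566) while the other 7 remained. In the accumbens the correlations were 0.444, -0.0688, -0.0415 and 0.696, where numbers also follow age. Counts were low for most members: 35 were under 3 CPM in the sorted mock libraries, and only 42 were tested in any accumbens fit.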
